A study of Mus musculus with 22 samples.

Results

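The 40 genes described here encode parts of the DNA replication and cell division machinery. They are 19 S phase genes (Mcm2 to Mcm7, Pcna, Cdc45, Cdc6, Cdt1, Gins2, Rrm1, Rrm2, Tyms, Ccne1, Ccne2, E2f1, Uhrf1 and Chaf1b) and 21 G2/M genes (Mki67, Top2a, Ccna2, Ccnb1, Ccnb2, Cdk1, Plk1, Aurka, Aurkb, Bub1, Bub1b, Cdc20, Cenpe, Cenpf, Kif11, Tpx2, Birc5, Ube2c, Nusap1, Hmmr and Foxm1). They were taken by name from a table of 49671 mouse genes, and all 40 passed the filter on low values. The list was chosen with earlier results of these data known. The study measured RNA in 22 libraries, 11 groups of 2, from mouse primary tumour cell lines that carry Lgr5CreER, a conditional p53 deletion (p53fl/fl) and a Rosa26-YFP reporter. CRISPR/Cas9 lines labelled as knockouts of the transcription factor genes Pitx1, Klf5, Nfatc1 or Creb3l1 stood beside a Control line. Living single mCherry+ YFP+ cells were sorted as EPCAM+ or EPCAM- at day 8 in all 5 lines, and as EPCAM+ only at day 0 in the Control line. EPCAM is an epithelial surface protein, and no treatment is named for day 0. Each group has a sample numbered 1 and a sample numbered 2, a number that the labels also give as a batch tag. Whether the 2 samples are separate cultures or clones is not given in the labels, so p-values measure only the spread between these samples.

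A cell commits to division by switching on E2F target genes, which supply the MCM helicase, its loaders and the nucleotide-making enzymes needed to copy DNA in S phase. Many genes of the later G2 and M phases are held down in resting and early-cycle cells by the DREAM complex, which binds CHR (cell cycle genes homology region) elements near the transcription start. They are switched on later by B-MYB, bound to the MuvB core of that complex, and by FOXM1, and CCAAT boxes nearby are bound by NF-Y. Because the products are made only in part of the cycle, the RNA of these genes is widely used as a measure of how many cells of a population are cycling.

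Promoter windows are shown for 3 G2/M genes and 2 S genes because these 5 held some of the largest differences between the sample numbers. Each window is the 300 bases from 250 before to 50 after the gene's first listed start in RefSeq (GRCm38.p6), written 5′ to 3′ on the gene's strand. Other starts of a gene were not searched. Capitals mark CHR hexamers (the letters TTTGAA or the letters TTTAAA) and CCAAT boxes in Plk1 (chr7:122159185-122159484, plus strand), Aurka (chr2:172370521-172370820, minus strand) and Cdc20 (chr4:118437294-118437593, minus strand). In Cdc6 (chr11:98907901-98908200, plus strand) and Mcm5 (chr8:75109259-75109558, plus strand) they mark only E2F matches, with 2 of the 3 Mcm5 matches overlapping in 1 run. In the GENCODE M21 annotation Cdc6 starts at 98907801, so its whole window lies inside that gene.
Plk1: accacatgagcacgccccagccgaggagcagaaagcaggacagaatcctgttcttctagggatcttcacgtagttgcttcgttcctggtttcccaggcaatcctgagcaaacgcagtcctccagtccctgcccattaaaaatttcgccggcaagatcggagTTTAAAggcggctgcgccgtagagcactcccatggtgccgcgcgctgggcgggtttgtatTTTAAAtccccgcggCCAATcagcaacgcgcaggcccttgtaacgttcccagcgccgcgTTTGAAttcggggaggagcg
Aurka: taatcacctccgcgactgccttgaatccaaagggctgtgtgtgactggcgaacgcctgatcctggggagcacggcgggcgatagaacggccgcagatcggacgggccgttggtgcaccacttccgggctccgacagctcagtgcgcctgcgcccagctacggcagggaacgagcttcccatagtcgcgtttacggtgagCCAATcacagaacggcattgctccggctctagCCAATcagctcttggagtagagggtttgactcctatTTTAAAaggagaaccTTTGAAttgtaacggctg
Cdc20: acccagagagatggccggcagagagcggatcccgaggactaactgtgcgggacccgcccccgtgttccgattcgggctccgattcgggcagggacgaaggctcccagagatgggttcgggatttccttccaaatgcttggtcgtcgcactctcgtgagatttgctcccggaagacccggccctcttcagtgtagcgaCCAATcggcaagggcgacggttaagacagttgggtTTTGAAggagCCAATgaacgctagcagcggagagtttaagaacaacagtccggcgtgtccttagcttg
Cdc6: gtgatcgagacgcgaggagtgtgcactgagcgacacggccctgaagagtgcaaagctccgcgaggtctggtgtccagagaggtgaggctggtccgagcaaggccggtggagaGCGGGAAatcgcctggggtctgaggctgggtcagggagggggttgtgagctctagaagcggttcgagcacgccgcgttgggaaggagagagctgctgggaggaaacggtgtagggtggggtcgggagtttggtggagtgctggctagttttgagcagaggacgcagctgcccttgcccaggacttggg
Mcm5: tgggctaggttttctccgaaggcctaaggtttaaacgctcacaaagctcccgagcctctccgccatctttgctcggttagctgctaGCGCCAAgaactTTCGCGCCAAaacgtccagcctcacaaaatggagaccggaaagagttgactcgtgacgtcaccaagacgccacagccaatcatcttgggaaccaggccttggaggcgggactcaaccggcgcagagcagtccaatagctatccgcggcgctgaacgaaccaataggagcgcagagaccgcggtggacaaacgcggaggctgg

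The table of promoters held 33 of the 40 genes, 16 S and 17 G2/M; Ccna2, Foxm1, Gins2, Tpx2, Mcm4, Aurkb and Ccne2 were not matched. CHR hexamers, searched as the letters TTTGAA and the letters TTTAAA on both strands, were found in 15 of 17 G2/M windows (88.2%), 5 of 16 S windows (31.2%) and 27.8% of all 27025 windows. CCAAT, on both strands, was found in 15 of 17 G2/M windows (88.2%), 10 of 16 S windows (62.5%) and 37.9% of all windows. The 2 motifs stood together in 14 G2/M windows, 4 S windows and 10.9% of all windows. E2F matches, searched as the letters TTCCCGC, the letters TTGGCGC, the letters TTCGCGC and the letters TTGCCGC on both strands, which can overlap, were found in 10 of 16 S windows (62.5%), 4 of 17 G2/M windows (23.5%) and 9.69% of all windows. The capitals in the Plk1 window start 89 and 29 bases before the start and 30 after it for the CHR letters, and 14 bases before it for CCAAT. A match describes the letters only and is not evidence of binding.

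Recovered depth ran from 6054919 to 9882692 reads per library with a median of 7804819. Deposited values summed to near 20000000 units in every library and fell on multiples of a step, taken as 1 read, of 2.02 to 3.30 units. Pitx1 RNA was 1205 to 1627 units in the 4 day 8 libraries labelled Pitx1 knockout (Pitx1KO) and 4358 to 6438 in those of the Control line. Nfatc1 RNA was 182 to 249 in Nfatc1KO and 488 to 981 in Control. Klf5 RNA was 1961 to 2247 in the library group labelled Klf5KO, inside the Control range of 1733 to 2941, so its RNA does not check that label. Creb3l1 was at 0 in both day 8 Control EPCAM+ libraries and at 137 and 26 in the EPCAM- ones, against 0 to 6 in Creb3l1KO. It was also at 0 to 8 in Pitx1KO, Klf5KO and Nfatc1KO, so its RNA does not check the Creb3l1KO label. Epithelial markers (7 of 7) and mesenchymal markers (6 of 6) reached 10 units in some library, and Epcam in the Control line was 6153 and 5633 in EPCAM+ against 180 and 441 in EPCAM- libraries.

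All 40 genes were well expressed in every library. Mean values ran from 717 units (Ccne1, which with CDK2 starts S phase) to 13754 (Top2a, the topoisomerase that untangles sister DNA). Scaled per kilobase of exon, the highest mean levels were Pcna, the replication clamp, at 2767 ± 507 (SD, n = 22 libraries), Rrm2, the ribonucleotide reductase subunit that limits dNTP supply, at 1971 ± 526, and Ube2c, the ubiquitin-conjugating enzyme of the anaphase-promoting complex, at 1604 ± 427. The lowest per kilobase were Tyms, which makes dTMP, at 163 ± 43.9 and Chaf1b, a histone chaperone subunit, at 164 ± 33.9; neither differs from the other beyond that spread. The gap between the lowest and the highest library was narrowest for Mcm6 (4858 to 8342 units, 1.72-fold) and widest for Aurkb, the chromosomal passenger kinase (479 to 1731 units, 3.61-fold).

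Sample number accounted for more of the variance than group in the S genes and for about as much in the G2/M genes. The number accounted for a median of 50.2% of the variance of log2 values in the S genes and 35.0% in the G2/M genes, against 6.48% over all 19569 genes tested and 11.1% over the 6879 genes with a mean of at least 500. The group accounted for a median of 26.9% in the S genes, 33.9% in the G2/M genes and 55.0% over all genes tested. These are raw shares of the sum of squares. With 11 groups and 2 numbers, random spread alone gives the group a larger share than the number, so the group shares are not evidence of a group difference. For 38 of the 40 genes the lowest of the 22 libraries carried number 1. Among the 21 G2/M genes the lowest was a number 1 library of Nfatc1KO for 11, of Creb3l1KO for 7 and of Klf5KO for 3. E2f1, the transcription factor that switches on S phase genes, was the clearest exception: group accounted for 75.5% of its variance and number for 4.50%, with 638 to 748 units in Pitx1KO, where its lowest library lies.

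**Figure D1:**
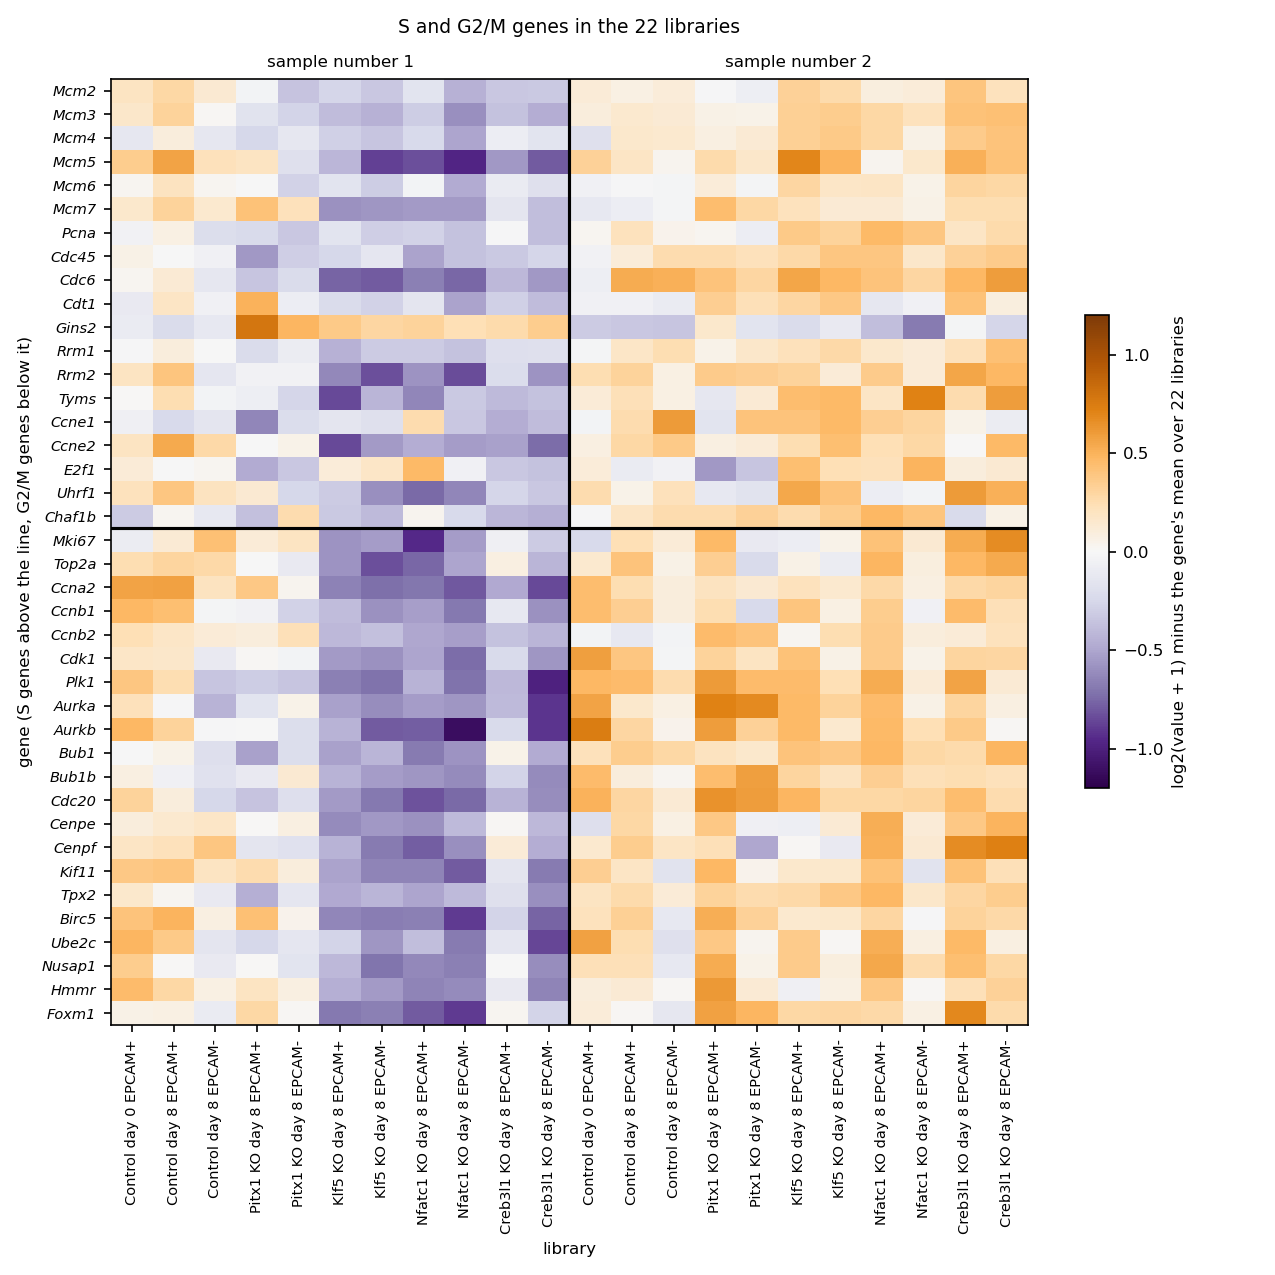
Level of each of the 40 genes in each of the 22 libraries, as log2(value + 1) minus the gene's mean over libraries, with S genes above G2/M genes, number 1 libraries on the left and number 2 libraries on the right. Purple (low) cells gather in the number 1 libraries of Klf5KO, Nfatc1KO and Creb3l1KO, and Gins2 runs the other way.

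Sample number was tested as the mean of number 2 minus number 1 over the 11 groups. In this comparison 34 of the 40 genes were called (adjusted p below 0.05), 33 of them higher in number 2, while 20.2% of all genes tested were called, 11% higher and 9.25% lower. Of the G2/M genes 18 of 21 were higher and 0 lower, with a median log2 difference of 0.47. Of the S genes 15 of 19 were higher and 1, Gins2, lower, with a median of 0.40; the median over all genes was 0.02. This fit takes the EPCAM+ and EPCAM- libraries of a line and number as independent, but their deviations correlated at 0.171 to 0.381, so its p-values are too small if they come from 1 culture. With the fractions averaged to 1 value per line, day and number, an alternative added after the data were seen, the differences were the same in size and 20 of the 40 genes were called, 9 S and 10 G2/M genes higher and Gins2 lower, against 8.34% of all genes called, 4.15% higher and 4.2% lower. The 14 genes that lost the threshold were Birc5, Ccnb1, Ccnb2, Ccne2, Cenpe, Cenpf, Foxm1, Hmmr, Mcm2, Mcm3, Mcm5, Mcm6, Top2a and Uhrf1. In bulk RNA of this kind, fewer cells in a phase and less RNA per cell cannot be told apart.

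Among the G2/M genes Plk1, Cdc20 and Aurka had the largest differences. Plk1, the polo kinase, had day 8 values in order EPCAM+ and EPCAM- of 1697 and 1129 in Control number 1 and 1968 and 1709 in number 2. Its values in Pitx1KO were 1161 and 1127 against 2171 and 1967, and in Klf5KO 906 and 873 against 1964 and 1687. In Nfatc1KO they were 1058 and 870 against 2072 and 1549, and in Creb3l1KO 1079 and 719 against 2117 and 1566. Number 2 libraries were therefore higher in all 5 lines, without overlap in any. The fitted difference for Plk1 was 0.78 on the log2 scale (SE 0.092, adjusted p = 3.46e-05, limma with Benjamini-Hochberg adjustment). Cdc20, which activates the anaphase-promoting complex, differed by 0.77 (SE 0.092, adjusted p = 3.93e-05 in limma) and Aurka, the centrosome kinase, by 0.70 (SE 0.079, adjusted p = 2.27e-05 in limma). Aurkb differed by 0.67, the checkpoint kinases Bub1 and Bub1b by 0.64 and 0.58, and Tpx2, the spindle activator of Aurka, by 0.56.

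Cdk1, the kinase that starts mitosis, rose by 0.54 (SE 0.084, adjusted p = 0.000319 in limma) and Ccnb1, its main cyclin, by 0.43 (SE 0.096, adjusted p = 0.00491 in limma). Foxm1, the transcription factor of G2/M genes, rose by 0.54, Nusap1 by 0.53, Ube2c by 0.47, Birc5 by 0.44, Cenpf by 0.43, Top2a by 0.42, Cenpe by 0.37, Hmmr by 0.35 and Ccnb2 by 0.32. The 3 G2/M genes that missed the threshold were Kif11, the spindle motor, with a difference of 0.38 (adjusted p = 0.0535 in limma), Ccna2, the cyclin of S and G2, with 0.45 (adjusted p = 0.0581), and Mki67, the proliferation antigen, with 0.40 (adjusted p = 0.0728).

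Among the S genes Cdc6 had the largest difference. Cdc6, which loads the MCM helicase onto origins, had 1172 and 986 units in Control number 1 (EPCAM+, EPCAM-) and 1552 and 1534 in number 2. It had 851 and 927 against 1430 and 1323 in Pitx1KO, and 633 and 621 against 1589 and 1498 in Klf5KO. In Nfatc1KO the values were 680 and 637 against 1427 and 1319, and in Creb3l1KO 811 and 732 against 1498 and 1632. Both number 2 libraries were thus above both number 1 libraries in every line at day 8, but not at day 0, where Cdc6 stood at 1091 and 1026. The fitted difference was 0.82 (SE 0.11, adjusted p = 0.000146, limma). Rrm2 differed by 0.60, Tyms by 0.56, Cdc45, part of the active helicase, by 0.49, and the E cyclins Ccne2 and Ccne1 by 0.47 and 0.46 (adjusted p = 0.0236 and 0.000486 in limma).

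Pcna differed by 0.40 (SE 0.072, adjusted p = 0.000925 in limma) and Mcm2 by 0.29 (SE 0.087, adjusted p = 0.0235 in limma). The other called MCM subunits were Mcm5 at 0.60, Mcm3 at 0.45, Mcm4 at 0.39 and Mcm6 at 0.23. Chaf1b at 0.42, Uhrf1, which keeps DNA methylation through replication, at 0.40 and Rrm1 at 0.37 were also higher in number 2. Mcm7 (0.28, adjusted p = 0.106 in limma), Cdt1, the partner of Cdc6 (0.25, adjusted p = 0.0579), and E2f1 (0.12, adjusted p = 0.309) were not called.

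Gins2, a subunit of the GINS complex of the helicase, went the other way. Its 4 day 8 Control values were 956 and 1026 in number 1 and 883 and 881 in number 2 (EPCAM+, EPCAM-), while those of Pitx1KO were 1916 and 1555 against 1245 and 1003. It had 1440 and 1373 against 957 and 1038 in Klf5KO, 1384 and 1318 against 856 and 695 in Nfatc1KO, and 1340 and 1420 against 1099 and 935 in Creb3l1KO. Number 1 was thus higher without overlap in all 5 lines, and the fitted difference was -0.48 (SE 0.075, adjusted p = 0.000335, limma). When each library was left out in turn, 23 of the 34 calls held throughout and 0 changed direction; the 11 that lost the threshold in some fit were Birc5, Ccnb2, Ccne2, Cenpe, Cenpf, Hmmr, Mcm2, Mcm5, Mcm6, Top2a and Uhrf1.

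Lists of related genes were counted in the same comparison, where 11% of all genes were higher and 9.25% lower. Of 64 other mitosis genes 48 were higher in number 2 and 0 lower, among them Pbk (0.77), Espl1, the separase (0.72), Ttk, a checkpoint kinase (0.69), and Ncapg, a condensin subunit (0.69). Of 48 other replication genes 33 were higher and 0 lower, led by Dctpp1 (0.93), Gins1 (0.84), Clspn (0.72) and Rpa2 (0.70). Of 32 cyclins, CDKs and G1 regulators 11 were higher, led by Mybl2, which encodes B-MYB (0.83), Skp2 (0.80), Fbxo5 (0.65) and E2f8 (0.64), and 2 were lower, Ccnd2, a G1 cyclin (-1.47), and Rbl2, a DREAM pocket protein (-0.39). Of 19 CDK inhibitors and arrest genes 4 were lower in number 2, Btg2 (-1.07), Sesn2 (-1.07), the p21 gene Cdkn1a (-0.82) and Gadd45b (-0.42), and 1, Cdkn3, was higher (0.58). Of 68 replication-dependent histone genes 3 were higher (Hist3h2ba, Hist1h2ao and Hist2h2be) and 0 lower, a smaller share than over all genes, with a list median of 0.23; many histone genes are near-identical, and reads could be split among them. With the fractions averaged, 29 of the other mitosis genes, 17 of the other replication genes, 5 of the cyclins, CDKs and G1 regulators and 1 histone gene were higher. In that fit 1 arrest gene was lower, and 4.15% of all genes were higher and 4.2% lower.

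The number difference was not the same size in all lines. Within a line, the EPCAM+ and EPCAM- libraries of a number served as the pair for the test, a choice made after the data were seen; they may come from 1 culture. In the Control line 2 S genes (Ccne1 0.62 and Cdc6 0.52) and 1 G2/M gene (Plk1 0.41, adjusted p = 0.0276 in limma) were higher in number 2, while 13.7% of all genes were called, 7.25% higher. The Control medians were -0.03 for S and 0.01 for G2/M genes. In Pitx1KO, where 12.7% of all genes were called and 7.01% higher, 4 S genes (Cdc45 0.67, Cdc6 0.63, Ccne1 0.55 and Rrm2 0.39) and 9 G2/M genes, led by Cdc20 (0.89), Plk1 (0.85) and Aurka (0.75), were higher and Gins2 lower (-0.63). In Klf5KO 17 S and 19 G2/M genes were higher, with 15.8% of all genes called and 8.32% higher. In Nfatc1KO 15 S and 21 G2/M genes were higher, with 19.5% called and 10.7% higher. In Creb3l1KO 16 S and 21 G2/M genes were higher, with 10.6% called and 5.57% higher. Gins2 was the 1 S gene called lower in each of these 3 lines (-0.50, -0.81 and -0.44). Without 1 of the 4 Klf5KO libraries 10 or 11 S genes were called in Klf5KO, and without either Creb3l1KO EPCAM- library 6 S and 7 G2/M genes in Creb3l1KO. In Pitx1KO 1 S and 4 G2/M genes were called without either EPCAM+ library and 3 S genes without either EPCAM- library. In Control 0 genes were called without either EPCAM- library.

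**Figure D2:**
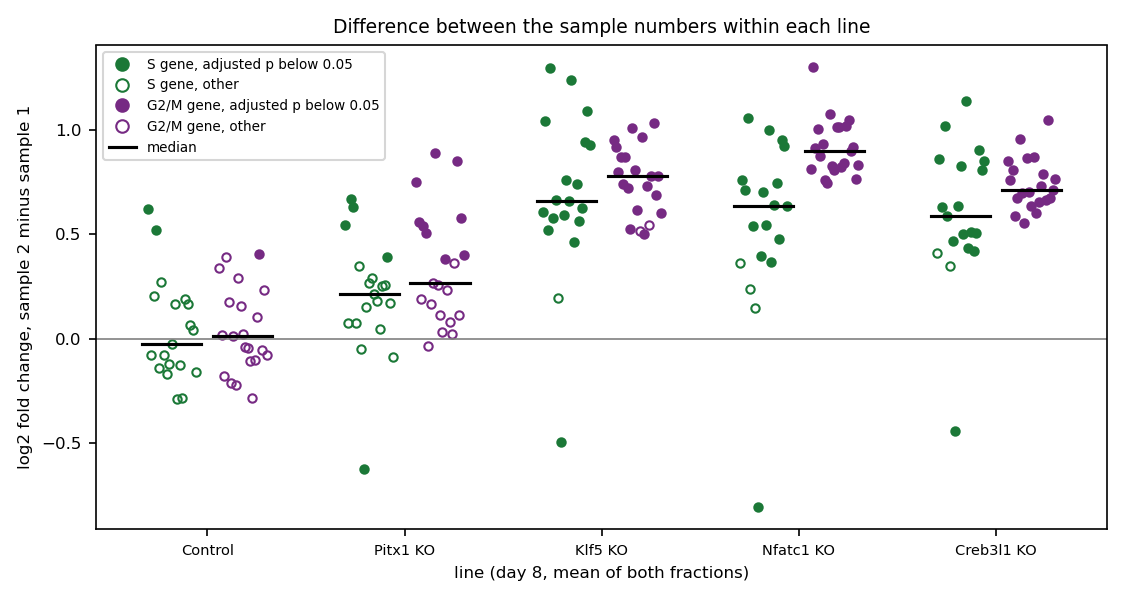
Difference between sample numbers (number 2 minus number 1, log2) for each gene in each line at day 8, S and G2/M genes apart, 1 point per gene (filled where the adjusted p was below 0.05) with the median marked. The Control medians lie near 0 (-0.03 and 0.01), those of Klf5KO at 0.66 and 0.78, Nfatc1KO at 0.64 and 0.90 and Creb3l1KO at 0.59 and 0.71.

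In linear units, the median G2/M gene had a ratio of number 2 to number 1 of 1.00 in Control, 1.20 in Pitx1KO, 1.72 in Klf5KO, 1.88 in Nfatc1KO and 1.62 in Creb3l1KO. The S medians were 0.977, 1.15, 1.58, 1.55 and 1.51 in the same order. Mcm5, a helicase subunit, shows the pattern in single libraries. It was at 4135 and 3252 in Control number 1 (EPCAM+, EPCAM-) against 3170 and 2846 in number 2, but at 2096 and 1516 against 4525 and 3928 in Klf5KO. It was at 1568 and 1420 against 2861 and 3113 in Nfatc1KO, and at 1894 and 1615 against 3985 and 3733 in Creb3l1KO. The direction in Control was thus opposite to that in the 3 knockout lines, although the Control difference itself (-0.29, adjusted p = 0.104 in limma) was not called.

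Ccna2 had 7223 and 5566 units in Control number 1 against 5769 and 5189 in number 2, and 3093 and 2923 against 5616 and 5373 in Klf5KO. In Nfatc1KO it had 2982 and 2779 against 5880 and 5129, and in Creb3l1KO 3472 and 2693 against 5869 and 6001. Its number 2 libraries were thus close in all 4 lines, and the number 1 libraries of the 3 knockout lines were low. Its log2 difference was 0.87 (SE 0.11) in Klf5KO, 0.93 in Nfatc1KO and 0.96 in Creb3l1KO. Mki67 was at 5643 and 7542 against 14594 and 11980 in Nfatc1KO, a difference of 1.02 (SE 0.20, adjusted p = 0.00506 in limma), and at 11929 and 14716 against 12904 and 11834 in Control, where the groups overlap. Top2a was at 7863 and 9386 against 18617 and 14152 in Nfatc1KO (0.92, adjusted p = 0.00258 in limma) and at 16455 and 16050 against 17606 and 13881 in Control, where they overlap too. Aurkb in Nfatc1KO had the widest G2/M difference of all, 1.30 (SE 0.12), with 601 and 479 units in number 1 and 1431 and 1223 in number 2.

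**Figure D3:**
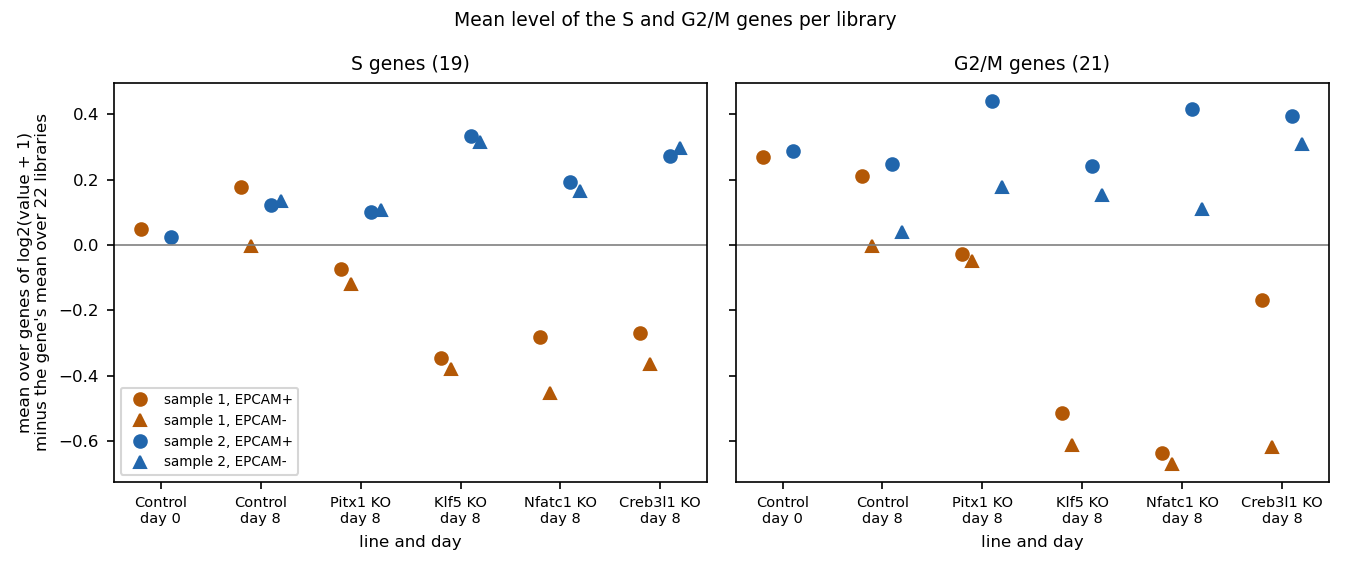
Mean level of the S genes (left) and G2/M genes (right) in each library by line and day, as the mean over genes of log2(value + 1) minus the gene's mean over the 22 libraries; colour marks the sample number, circles EPCAM+ and triangles EPCAM- libraries. Number 1 libraries of Klf5KO, Nfatc1KO and Creb3l1KO lie at -0.45 to -0.27 for the S genes and -0.67 to -0.17 for the G2/M genes, and every number 2 library is above 0 in both panels.

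The difference between the number difference of a knockout line and that of Control was itself tested in limma. The EPCAM+ and EPCAM- libraries of a line and number again served as the replicates. They may come from 1 culture, and the p-values are then too small. For Klf5KO it was positive and called for 13 S and 16 G2/M genes, against 12.4% of all genes called in either direction, with the largest values for Mcm5 (1.53, SE 0.16), Ccne2 (1.12), Uhrf1 (1.09) and Ccna2 (1.08, SE 0.16). For Nfatc1KO it was positive and called for 11 S and 19 G2/M genes, against 14.5% of all genes, led by Mcm5 (1.29), Aurkb (1.28) and Ccna2 (1.14), and negative for Gins2 (-0.64). For Creb3l1KO it was positive and called for 10 S and 15 G2/M genes, against 14.1% of all genes, led by Mcm5 (1.43), Ccna2 (1.17) and Kif11 (1.02). For Pitx1KO 1 G2/M gene, Cdc20 (0.60, adjusted p = 0.0437 in limma), and 0 S genes were called, against 3.03% of all genes; at an unadjusted p below 0.05 there were 10 G2/M and 6 S genes, against 3434 of 19569 genes tested (17.5%). These 4 comparisons share the Control libraries. Leaving out 1 library leaves 1 fraction for a line and lowered several of these counts. Without either Control EPCAM+ library 7 S and 7 G2/M genes were called for Klf5KO, 5 S genes for Nfatc1KO, and 6 S and 7 or 8 G2/M genes for Creb3l1KO. Without 1 of the 4 Klf5KO libraries 6 to 8 S and 6 to 8 G2/M genes were called for that line. Without the Nfatc1KO EPCAM- number 2 library 7 S genes, and without either Nfatc1KO EPCAM+ library 10 G2/M genes, were called for Nfatc1KO. Without either Creb3l1KO EPCAM- library 6 G2/M genes were called for Creb3l1KO, and without any 1 of the Pitx1KO or Control libraries 0 for Pitx1KO.

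Library quality and markers of other cell types were compared between the numbers. In the 3 lines Klf5KO, Nfatc1KO and Creb3l1KO recovered reads overlapped (6.74e+06 to 8.36e+06 in number 1 and 6.05e+06 to 9.88e+06 in number 2), and mitochondrially encoded genes held 1.56 to 2.49% of number 1 and 1.90 to 2.25% of number 2 libraries. Over all 22 libraries the summed fibroblast markers were at 193 to 4953 units in number 1 and 90 to 2958 in number 2, and the summed endothelial markers at 127 to 431 and 65 to 159. Kdr (-4.19), Col3a1 (-4.20), Col1a1 (-1.30), Zeb1 (-1.26) and Krt14 (-1.20) were called lower and Epcam (0.77) higher in number 2. Of the immune markers 2 of 7 and of the erythroid markers 1 of 5 reached 10 units in any library; their sums were 94 to 230 and 5 to 71 units in number 1 and 109 to 277 and 7 to 81 in number 2, with Cd3e and the 4 globin genes at 0 throughout. The part of these differences in the cell cycle result was not tested. The p21 gene Cdkn1a was at 374 and 214 units in Control number 1 against 656 and 184 in number 2 (EPCAM+, EPCAM-). It was at 932 and 651 against 375 and 242 in Pitx1KO, and at 814 and 354 against 514 and 272 in Klf5KO. In Nfatc1KO it was at 1427 and 594 against 334 and 162, and in Creb3l1KO at 572 and 314 against 535 and 227. Number 1 was thus higher in both fractions of the 4 knockout lines, while the EPCAM+ libraries of Control ran the other way.

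Each knockout line was also set against Control at day 8, the question the design puts first. With both sample numbers and both fractions together, 0 of the 40 genes were called in any of the 4 lines, where 4.28% of all genes were called for Pitx1KO, 0.557% for Klf5KO, 0.046% for Nfatc1KO and 0.945% for Creb3l1KO. At an unadjusted p below 0.05 in limma there were 2 S genes for Pitx1KO (E2f1 at -0.40, adjusted p = 0.160, and Gins2 at 0.57, adjusted p = 0.215), 1 G2/M gene for Klf5KO (Top2a at -0.62, adjusted p = 0.372) and 1 S gene for Nfatc1KO (Uhrf1 at -0.59, adjusted p = 0.470). The test on recovered reads also called 0. Medians over the G2/M genes were -0.32 in Klf5KO, -0.31 in Nfatc1KO, -0.15 in Creb3l1KO and 0.01 in Pitx1KO, and all 21 fold changes were negative in Klf5KO and in Nfatc1KO. With the replicate block, Gins2 was called higher in Pitx1KO than in Control (adjusted p = 0.00806 in limma), beside 8.77% of all genes, and also within EPCAM+ cells (0.75, adjusted p = 0.0367 in limma), beside 1.97% of all genes. In a single fraction without the block 0 of the 40 genes were called in any line. An unadjusted p below 0.05 in limma was reached by 2 S genes, both in Pitx1KO EPCAM+ cells, where 10.3% of all genes reached it. Called in EPCAM+ cells were 0.409% of all genes for Pitx1KO, 0.0511% for Klf5KO, 0% for Nfatc1KO and 0.194% for Creb3l1KO, and in EPCAM- cells 0.915%, 0.153%, 0% and 0.261%. The mean of the 4 lines against Control also called 0 of the 40, where 0.659% of all genes were called, with medians of -0.14 for the S and -0.19 for the G2/M genes.

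Split by sample number, the same comparison gave different counts. Each line has 1 sample of a number, so its EPCAM+ and EPCAM- libraries served as the replicates in this test. They may come from 1 culture, and the p-values are then too small. Within number 1, 20 of 21 G2/M genes and 12 of 19 S genes were lower in Klf5KO than in Control, against 22.9% of all genes called and 11.2% lower. In Nfatc1KO 20 G2/M and 14 S genes were lower (23% called, 11.3% lower), and in Creb3l1KO 14 G2/M and 10 S genes (23.3% called, 12.3% lower). In Pitx1KO 1 G2/M gene, Ccnb1 (-0.37), and 5 S genes were lower (16.7% called, 7.68% lower). Each line had 1 S gene called higher, and it was Gins2, at 0.51 in Klf5KO, 0.45 in Nfatc1KO, 0.48 in Creb3l1KO and 0.80 in Pitx1KO; the 4 lines share the 2 Control libraries.

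In that number 1 comparison Ccna2 was at -1.08 in Klf5KO, -1.14 in Nfatc1KO and -1.05 in Creb3l1KO (SE 0.11 each), and Mcm5 at -1.04, -1.30 and -1.07 (SE 0.11 each). Birc5, which encodes survivin of the chromosomal passenger complex, was at -0.94, -1.06 and -0.80, and Kif11 at -0.87, -1.01 and -0.71. Ccne2 was at -1.11, -0.91 and -1.04, while its relative Ccne1 was not called in any line (0.02, 0.15 and -0.24). Top2a fell in Klf5KO (8890 and 7468 units against 16455 and 16050 in Control, adjusted p = 0.00118 in limma) and by 0.92 in Nfatc1KO, and Mki67 fell by 0.83 and 1.02; both stood at -0.46 in Creb3l1KO without a call. Ccnb1 was at -0.69, -0.82 and -0.56, Cdk1 at -0.60, -0.65 and -0.43, and Mcm2 at -0.51, -0.51 and -0.54, all called. Pcna was not called (-0.16, -0.26 and -0.13).

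Leaving out 1 number 1 library lowered several of these counts, here given with Gins2 among the S genes. Without the Control EPCAM+ library 7 S genes were called in Klf5KO, 7 in Nfatc1KO, 2 in Creb3l1KO and 1 in Pitx1KO, and 12 G2/M genes in Klf5KO and 5 in Creb3l1KO. Without the Control EPCAM- library 13 G2/M genes were called in Klf5KO and 3 S genes in Pitx1KO. Without the Klf5KO EPCAM+ library 7 S and 10 G2/M genes, and without the EPCAM- one 10 G2/M genes, were called in Klf5KO. Without the Nfatc1KO EPCAM+ library 10 G2/M genes, and without the EPCAM- one 9 S genes, were called in Nfatc1KO. Without the Creb3l1KO EPCAM- library 5 S and 5 G2/M genes were called in Creb3l1KO, and without the Pitx1KO EPCAM- library 1 S gene in Pitx1KO. The single G2/M call in Pitx1KO, Ccnb1, was lost without either Control library or the Pitx1KO EPCAM+ one, and the count was 2 without the Pitx1KO EPCAM- library of number 1 or either Pitx1KO library of number 2.

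Within number 2, tested on fraction pairs in the same way, few genes were called. They were Mcm5 (0.49) in Klf5KO against 2.2% of all genes, 0 genes in Nfatc1KO against 3.46%, and Uhrf1 (0.42) and Foxm1 (0.53) in Creb3l1KO against 4.48%. At an unadjusted p below 0.05 in limma Nfatc1KO had 3 S and 5 G2/M genes, against 3101 of 19569 genes tested (15.8%), and the test on recovered reads called 0 there. In Pitx1KO Mcm7 (0.42), Foxm1 (0.58), Aurka (0.58), Ccnb2 (0.51), Bub1b (0.45) and Cdc20 (0.40) were higher, against 11.8% of all genes. All of these were higher in the knockout line. The calls in Klf5KO and Creb3l1KO were lost without the Control EPCAM+ or the line's EPCAM+ library, and that in Klf5KO also without either EPCAM- library and that of Uhrf1 also without the Creb3l1KO EPCAM- one. In Pitx1KO the G2/M count fell to 1 without either EPCAM+ library and to 3 without either EPCAM- library of the comparison, the S call was lost without the Control EPCAM+ or either Pitx1KO library, and in Nfatc1KO 1 S gene was called without its EPCAM+ library. Ccna2 differed from Control by 0.01 in Klf5KO, 0.01 in Nfatc1KO and 0.12 in Creb3l1KO.

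**Figure D4:**
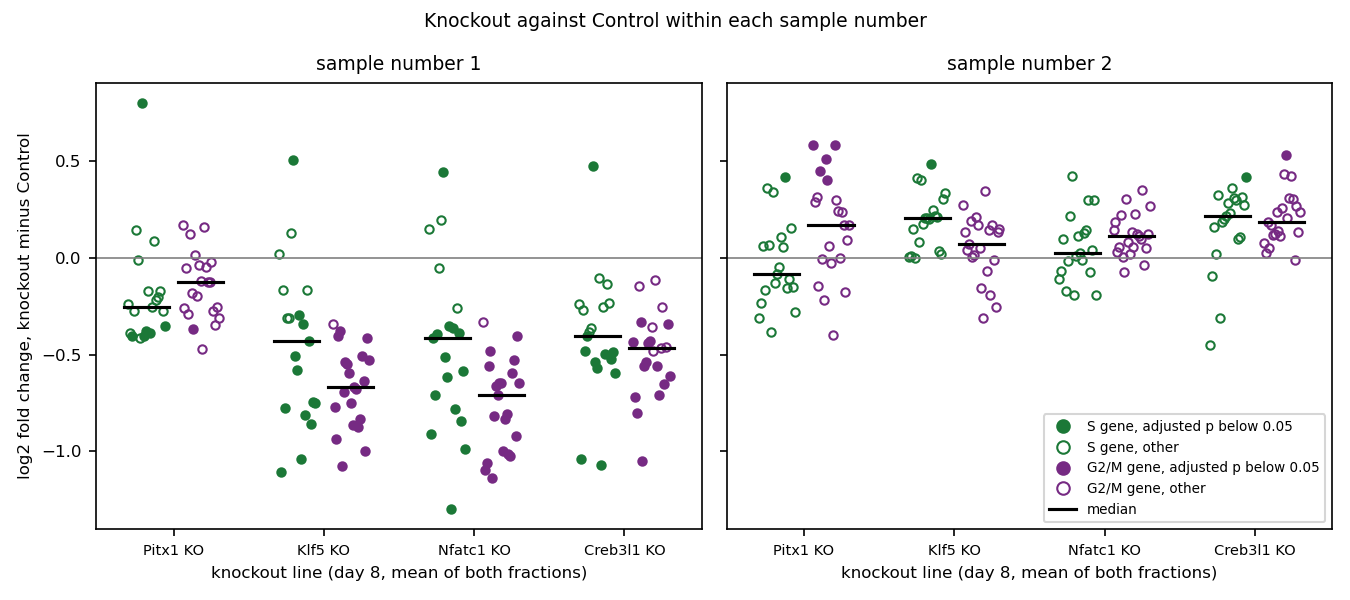
Knockout minus Control (log2, mean over both fractions, day 8) for each gene of each line, within sample number 1 (left) and within sample number 2 (right), 1 point per gene (filled where the adjusted p was below 0.05) with the median marked. In Klf5KO and Nfatc1KO all 21 G2/M genes are below 0 within number 1, with medians of -0.66 and -0.71, and the number 2 medians are 0.07 and 0.11.

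The related gene lists were also counted within number 1, where 11.2% of all genes were lower in Klf5KO, 11.3% in Nfatc1KO, 12.3% in Creb3l1KO and 7.68% in Pitx1KO. Of 64 other mitosis genes 57 were lower in Klf5KO, 58 in Nfatc1KO, 44 in Creb3l1KO and 7 in Pitx1KO. Spc24, a kinetochore subunit, was at -1.47, -1.53 and -1.54 in the first 3 lines. Of 48 other replication genes 38, 42, 34 and 9 were lower in the same order of lines, Dscc1, which helps to load PCNA, being at -1.16, -1.36 and -1.23. Of 68 histone genes 58, 61, 51 and 12 were lower, with list medians of -1.15, -1.30 and -0.69 in the first 3 lines. The histones also differed within Control, where 41 of 68 were lower in number 2 than in number 1 (median -0.62). In that comparison 1261 of 19569 genes tested were lower. The S and G2/M genes did not share this histone difference in their medians. Of 19 CDK inhibitors and arrest genes 9 were higher in Klf5KO, 10 in Nfatc1KO, 7 in Creb3l1KO and 10 in Pitx1KO within number 1, against 11.7%, 11.8%, 11% and 8.99% of all genes, and 1, 4, 2 and 1 were lower. The p15 gene Cdkn2b was at 1.87, 2.00 and 1.86 and the stress gene Gadd45a at 2.01, 2.16 and 3.03 in the first 3 of these, while Cdkn2c, the p18 gene, was lower at -1.19, -1.20 and -1.27. Also lower were Gas1 (-2.42), Gas2l3 (-0.42) and Cdkn1b, the p27 gene (-0.36), in Nfatc1KO, Gas2l3 (-0.55) in Creb3l1KO, and Gas1, near 0 units there, in Pitx1KO.

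Averaged over the lines, the sorted fractions differed less than the sample numbers. In Control alone the G2/M median was 0.01 between the numbers and -0.23 between the fractions. Over the 5 lines at day 8, 0 of the 40 genes were called between EPCAM- and EPCAM+ cells, while 6.22% of all genes were. At an unadjusted p below 0.05 in limma there was 1 G2/M gene and 0 S genes, against 19.5% of all genes. The test on recovered reads called 0 of the 40. The median log2 difference (EPCAM- minus EPCAM+) was -0.17 for the G2/M genes, negative for 20 of 21, and -0.08 for the S genes, negative for 12 of 19, against 0.06 over all genes. Ube2c was at -0.37 (SE 0.16, adjusted p = 0.230 in limma), Ccnb1 at -0.32 (adjusted p = 0.265), Cdk1 at -0.21, Top2a at -0.20 and Mki67 at -0.01. Among the S genes Pcna was at -0.13, Mcm2 at -0.11, Ccne1 at 0.07 and Ccne2 at 0.06. Within single lines the G2/M medians were -0.23 in Control, -0.18 in Pitx1KO, -0.10 in Klf5KO, -0.16 in Nfatc1KO and -0.22 in Creb3l1KO. There 0 of the 40 genes were called in any line. Of all genes 0.644% were called in Control, 0.317% in Pitx1KO, 0.286% in Klf5KO, 0.429% in Nfatc1KO and 0.291% in Creb3l1KO. An unadjusted p below 0.05 in limma was reached by 0 of the 40, against 3.83 to 9.20% of all genes.

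**Figure D5:**
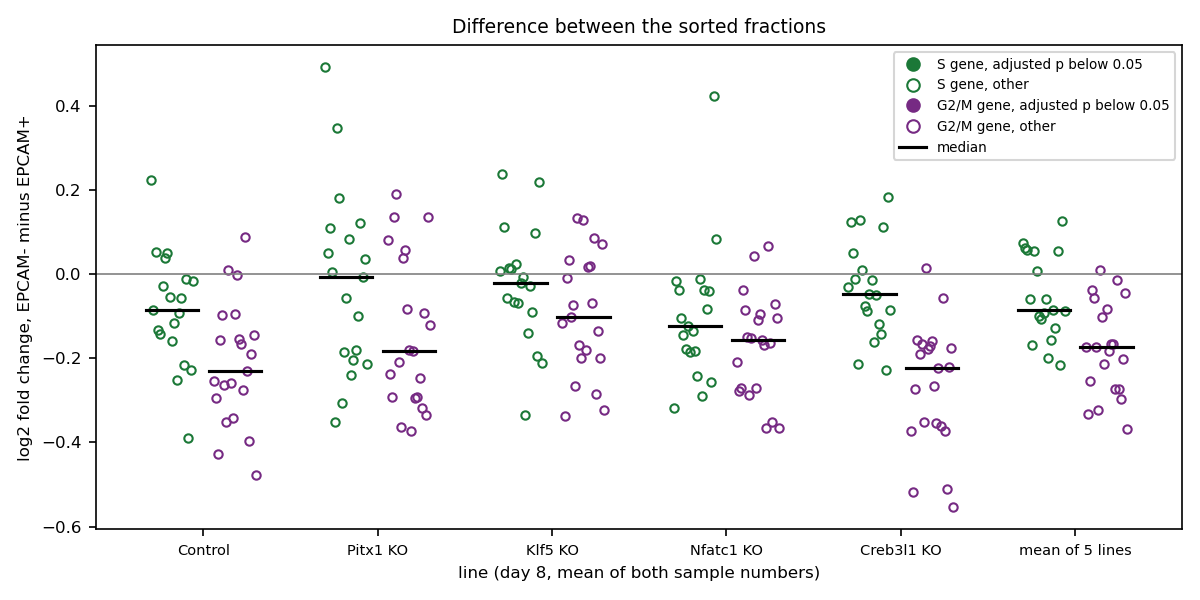
EPCAM- minus EPCAM+ difference (log2) of each gene in each line and as the mean of the 5 lines at day 8, S and G2/M genes apart, with the median marked; open points mark an adjusted p not below 0.05. The G2/M medians lie between -0.23 and -0.10 and the S medians between -0.12 and -0.01.

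Ube2c shows the fraction and number differences side by side in single libraries. Its values in EPCAM+ and EPCAM- were 5205 and 3639 in Control number 1, 4794 and 3536 in Control number 2, 3667 and 2221 in Creb3l1KO number 1 and 5550 and 4253 in Creb3l1KO number 2. EPCAM- was thus lower within every one of these pairs, and over all 10 pairs in 9. The exception was Pitx1KO number 1, with 3380 in EPCAM+ and 3652 in EPCAM-. The sample numbers pair the libraries, so blocked fits bear on this comparison. With the replicate block Ube2c was called (adjusted p = 0.0303 in limma), where 10.1% of all genes were called and 4.91% lower. With a block for each line and number, 11 G2/M genes and 4 S genes were lower in EPCAM- cells, against 22.9% of all genes called and 9.2% lower. The G2/M genes were Ube2c (-0.37, adjusted p = 1.65e-05 in limma), Aurkb (-0.33), Ccnb1 (-0.32), Plk1 (-0.30), Kif11 (-0.27), Nusap1 (-0.27), Birc5 (-0.25), Cdk1 (-0.21), Aurka (-0.17), Ccna2 (-0.17) and Foxm1 (-0.17). The S genes were Rrm2 (-0.22), Mcm5 (-0.20), Cdt1 (-0.17) and Mcm6 (-0.16). Within single lines this block left Rrm2 (-0.39), Ube2c (-0.48) and Birc5 (-0.43) lower in Control EPCAM- cells, beside 7.05% of all genes called, and Ube2c (-0.55), Aurkb (-0.52), Plk1 (-0.51) and Foxm1 (-0.35) lower in those of Creb3l1KO, beside 3.23%. The fraction difference was not detectably different in any knockout line from that in Control: 0 of the 40 genes and 0% of all genes were called. An unadjusted p below 0.05 in limma was reached by 0 of the 40, against 1.13 to 1.91% of all genes. That fit did not pair the sample numbers, so their difference entered its error and a real difference could be missed. The block for each line and number was not fitted for this question.

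Day 8 and day 0 could be compared only in Control EPCAM+ cells. No S or G2/M gene was called, and 0% of all genes were called. An unadjusted p below 0.05 in limma was reached by 831 genes, 4.25% of all genes tested, and by 0 of the 40. The medians were 0.11 for the S genes and -0.07 for the G2/M genes. Plk1 stood at 1876 and 1987 at day 0 against 1697 and 1968 at day 8, and Pcna at 6338 and 6634 against 6873 and 7553. Against day 0 EPCAM+ cells, day 8 EPCAM- Control cells also had 0 of the 40 genes called, where 2.01% of all genes were called. The G2/M median was -0.34 and Ube2c stood at -0.69 (adjusted p = 0.429 in limma). An unadjusted p below 0.05 in limma was reached by 0 of the 40, against 14.0% of all genes. For a single gene tested between 2 groups of 2 libraries, an exact permutation test cannot go below p = 0.333.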

How the data were processed

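RNA was sequenced from 22 libraries of sorted mouse tumour cells: total RNA, RNeasy micro kit, Ovation Solo libraries, NovaSeq, per the labels' protocols. FastQC, Trimmomatic, STAR, Picard and HTSeq and the GRCm38/mm10 genome are named without versions or roles, per the submitters' processing notes. The deposited value is a score, read here, from the values and not from any header or label, as a read count scaled to a common total per library and rounded up; 99.8 to 99.9% of values in a library were a whole number of steps, and dividing by the step gave the recovered reads. The values are not raw counts, so the planned edgeR test of counts was replaced by limma 3.58.1 in R 4.3.3 (version 1.17.8 of data.table) on log2(value + 1), without further scaling. Fold changes are on that scale. Genes with at least 10 units in at least 2 libraries were tested, 19569 of 49671, in 1 fit of all 22 libraries with a mean per group, a variance trend and a robust prior. Benjamini-Hochberg adjustment covered all genes tested in a contrast, and a gene was called at an adjusted p below 0.05. The number fit had 10 residual degrees of freedom and the fit by group 11.

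The sample number is a batch tag in the labels, but the main fit by group did not pair same-numbered samples. Same-numbered samples were paired in the replicate block and in the block for each line and number. Their deviations correlated at -0.131 to 0.381 over 55 pairs of groups (median 0.146, 36 over 0.1), and at 0.171 to 0.381 between fractions within lines. The comparisons within a line or a number, with line by number and line by fraction in the fit and 5 residual degrees of freedom, were added after the data were seen, as was the number fit on fractions averaged per line, day and number. The members and lists were chosen with earlier results of these data known. Named genes were Pcna, Mcm2, Ccne1, Ccne2, Mki67, Top2a, Ccnb1 and Cdk1 throughout, up to 10 called members per direction and list, up to 3 with the lowest p where fewer than 3 were called, and up to 4 called genes of each other list; genes whose values are given by library beyond these were chosen for their differences. Alternatives were a pseudocount of 8, median-of-ratios scaling, no filter, a filter of 50, voom on recovered reads, only the compared groups, the replicate block, a block for each line and number in the fraction comparisons and leaving out each library. Promoter windows came from RefSeq on GRCm38.p6. The steps were tested on simulated data. Values and figures were prepared in Python 3.11.15 (pandas 2.3.3, numpy 2.4.6, matplotlib 3.10.9, scipy 1.17.1). An item of the labelled genotype is not reported here.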

Additional observations from a re-analysis of the deposited data

Results flagged for a closer look

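The difference between the sample number differences of a knockout line and Control was tested with limma after the data were seen. It was passed by 16 G2/M and 13 S genes for Klf5KO, against 12.4% of all genes. For Nfatc1KO 19 G2/M and 12 S genes passed, against 14.5%, and for Creb3l1KO 15 G2/M and 10 S genes, against 14.1%. For Pitx1KO 1 G2/M gene passed, against 3.03% of all genes. All were positive but Gins2 in Nfatc1KO. The lines share the Control libraries. The EPCAM+ and EPCAM- libraries of a line and number served as the replicates. They may come from 1 culture, and the p-values are then too small. The cause was not tested.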

How the results depend on the processing

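Another pseudocount, a filter of 50 and voom on recovered reads moved none of the 86 counts of called S and G2/M genes by over 1.5 times. Median-of-ratios scaling and no filter moved 1, the G2/M call for the number difference of Pitx1KO against Control, to 0. With the replicate block, 1 G2/M gene was called between fractions over 5 lines, and 1 S gene for Pitx1KO against Control over both fractions and in EPCAM+ cells; the block changed no other of the 50 counts it bears on. With the block for each line and number, fraction counts were 4 S and 11 G2/M genes over 5 lines, 1 S and 2 G2/M in Control and 4 G2/M in Creb3l1KO. With the fractions averaged per line and number, the number 2 minus number 1 comparison called 10 S and 10 G2/M genes. Of the named genes' calls, 14 were lost with that averaging, 6 with no filter and 2 with voom on recovered reads.

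Leaving out each library in turn reversed 0 of the 34 calls of number 2 minus number 1 over 11 groups. Direction was not checked in this way for the other results. For number 2 minus number 1 over 11 groups the S count was 11 to 18 and the G2/M count 12 to 21. By line the S count was 0 to 2 in Control, 1 to 3 in Pitx1KO, 10 to 11 in Klf5KO, 13 to 15 in Nfatc1KO and 6 to 13 in Creb3l1KO. The G2/M count was 0 to 1, 4 to 7, 14 to 15, 16 to 21 and 7 to 20 in the same order. Against Control within number 1 the S count was 1 to 6 in Pitx1KO, 7 to 13 in Klf5KO, 7 to 15 in Nfatc1KO and 2 to 11 in Creb3l1KO, and the G2/M count 0 to 2, 10 to 20, 10 to 21 and 5 to 16. Within number 2 the S count was 0 to 1 in each of the 4 lines, and the G2/M count 1 to 5 in Pitx1KO and 0 to 1 in Creb3l1KO. For the difference of number differences the S count was 6 to 13 in Klf5KO, 5 to 11 in Nfatc1KO and 6 to 10 in Creb3l1KO, and the G2/M count 6 to 11, 10 to 19 and 6 to 17, with 0 in Pitx1KO. Such fits leave 1 library for a group.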
